A study of Mus musculus with 12 samples.

Results

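Aminoacyl-tRNA synthetases are the enzymes that join each amino acid to its tRNA, the step that fixes the genetic code in every cell. Cytosolic enzymes charge the tRNAs used for nuclear mRNAs, and a separate set of nuclear-encoded enzymes is imported into mitochondria to charge the tRNAs of the mitochondrial genome; glycyl- and lysyl-tRNA synthetase serve both compartments from a single gene. Several cytosolic enzymes are held in a multisynthetase complex by the scaffold proteins Aimp1, Aimp2 and Eef1e1, and many cytosolic synthetase genes are known targets of ATF4, the transcription factor that is induced when amino acids run short. The genes described here were picked by name from the gene column of the count files, and all 39 were present among 20661 genes. They were 20 genes of cytosolic synthetases, 16 of mitochondrial synthetases and 3 of scaffold proteins, and all 39 passed the filter on low counts in the 9 comparisons below.

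RNA and ribosome footprints, the mRNA fragments that ribosomes shield from nuclease, were counted in passage 4 mouse embryonic fibroblasts (MEFs) of 3 conditions, with 2 replicates per condition and assay and 12 libraries in all. WT-shSCR MEFs were wild-type cells given a scrambled lentiviral hairpin RNA, WT-shARF MEFs were wild-type cells given a hairpin against ARF, and Arf-/--shSCR MEFs were ARF-knockout cells given the scrambled hairpin; ARF is a tumor suppressor made from Cdkn2a, a gene that also encodes INK4A. All cells had thus passed lentiviral transduction and, by the study's methods, puromycin selection. The labels give the strain C57BL/6J for the wild-type cells and B6.129X1-Cdkn2atm1Cjs/KaiJ for the knockout, while the methods name B6129SF2/J mice as wild type, so that strain and loss of Arf cannot be told apart. Neither source says that replicates came from separate embryos or cultures, so the p-values measure the spread between these libraries only.

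RNAseq libraries held 1578627 to 3989908 counts on genes, and footprint libraries 2544319 to 5157572. The Cdkn2a count went against a label: it was 631.7 and 653.5 CPM (counts scaled to the library total with TMM factors) in RNA of the libraries labelled WT-shARF against 43.7 and 41.3 CPM in WT-shSCR and 27.2 and 31.7 CPM in Arf-/--shSCR libraries, so each direction below is given for libraries by their label. The count does not tell ARF from INK4A transcripts. The study itself shows the knockdown and the knockout of ARF by immunoblot, and it states that the hairpin leaves INK4A expression unaffected. Col1a1, a fibroblast gene, was abundant in every library, with RNA at 3372 to 5083 CPM. Fibroblast markers were not constant, however. Of 10 listed, 4 were called higher and 3 lower in Arf-/--shSCR than in WT-shSCR footprints, beside 9.57% and 8.95% of all genes. Their summed footprints were 47380 to 50360 CPM in WT-shSCR, 53910 to 54830 CPM in WT-shARF and 37770 CPM in each Arf-/--shSCR library. Libraries also differed in markers of other cells, and 9 of 10 macrophage markers were called lower in Arf-/--shSCR than in WT-shSCR footprints. The summed level of 10 macrophage markers in footprints was 683.3 to 683.9 CPM in WT-shSCR, 240.1 to 303.0 CPM in WT-shARF and 50.1 to 62.4 CPM in Arf-/--shSCR libraries, and 10 epithelial and mesothelial markers summed to 93.0 to 114.7, 75.5 to 96.6 and 184.4 to 185.2 CPM. No marker of these lists was at 0 in all 6 footprint libraries, and the part of the markers in the results below was not tested. In such bulk samples fewer cells of a type and less RNA per cell cannot be told apart.

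Promoter sequences were set beside the members because ATF4 binds C/EBP-ATF response elements, which contain the letters TGATGNAA. The windows, from RefSeq on GRCm38.p6, ran from 250 bases before to 50 bases after the annotated start, and 29 of 39 members matched an entry by symbol. On either strand the letters occurred in 5 of 12 matched cytosolic genes (Aars, Gars, Iars, Tars and Yars), in 0 of 14 mitochondrial genes and in 0 of 3 scaffold genes. Among 15609 genes of the count files with a window, 3.95% held them. All 5 members with the letters belonged to a list of 13 cytosolic synthetases known as ATF4-induced, of which 7 had a window, and none of 5 windows of the other cytosolic synthetases held them. A stretch around the letters is shown for each of the 4 of these genes whose footprints changed in at least 1 comparison below, in the direction of the gene, with the 8 matching letters in capitals. Yars holds them on its own strand and the others on the opposite strand, so that they are printed as the reverse complement. The matches shown lie close to the annotated start. Aars holds a further match on the opposite strand, 112 to 105 bases before the start, which is not printed.
Aars, chr8:111033840-111033869, + strand: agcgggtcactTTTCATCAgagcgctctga
Iars, chr13:49682126-49682155, + strand: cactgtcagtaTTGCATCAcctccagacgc
Tars, chr15:11399655-11399684, - strand: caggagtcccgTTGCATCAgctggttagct
Yars, chr4:129189895-129189924, + strand: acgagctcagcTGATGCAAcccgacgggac
A match describes these letters and not a bound site. Of the other members called in a comparison below, Kars and Aimp2 had windows without the letters. Vars, Mars and Wars had no window, so their promoters were not examined. A further sequence feature of translation genes, a start with C followed by at least 4 pyrimidines, was found at the annotated start of 1 matched member, the mitochondrial tryptophanyl-tRNA synthetase gene Wars2, and at 2.74% of all genes with a window.

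Levels were compared between genes per kilobase of coding sequence. In WT-shSCR cells the median RNA level was 75.6 CPM per kb for the cytosolic and 8.99 CPM per kb for the mitochondrial synthetases, and the ranges did not overlap in any condition or assay: here the lowest cytosolic level was 45.2 CPM per kb (Dars, the aspartate enzyme) and the highest mitochondrial level was 27.1 CPM per kb (Iars2, the isoleucine enzyme). The scaffold genes stood among the cytosolic synthetases, from 66.8 (Aimp1) to 110.2 CPM per kb (Aimp2). Gars, the glycine enzyme that also serves mitochondria, led the RNA levels with 299.3 CPM per kb, and Nars, the asparagine enzyme, led the footprint levels with 339.8 CPM per kb. The same genes led in all 3 conditions: Gars RNA was at 291.2 and Nars footprints at 392.5 CPM per kb in WT-shARF cells, and at 243.4 and 341.6 CPM per kb in Arf-/--shSCR cells.

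For 13 amino acids the names pair a cytosolic with a mitochondrial gene, and the cytosolic gene was the higher one in each pair, in RNA and in footprints. In WT-shSCR RNA the fold ranged from 2.58 (Iars over Iars2) to 26.6 (Sars over Sars2), with a median of 9.78, and in footprints from 2.63 (Yars over Yars2) to 48.1 (Nars over Nars2), with a median of 9.90. The isoleucine pair was among the closest in RNA, with log2 ratios of 1.37 ± 0.05 (SD, n = 2) in WT-shSCR, 1.63 ± 0.39 in WT-shARF and 1.47 ± 0.23 in Arf-/--shSCR cells. Any 2 of these conditions differed by less than the larger of their SDs, but by more than the SD in WT-shSCR cells. The leucine pair was wide apart, with Lars RNA 18.3-fold above Lars2 in WT-shSCR, 19.9-fold in WT-shARF and 23.7-fold in Arf-/--shSCR cells. The SDs of its log2 ratio were 0.58, 0.34 and 0.14, and Lars2 RNA counts were as low as 9. The methionine pair lay between them at 8.35-, 9.70- and 11.5-fold in the same order, with SDs of the log2 ratio of 0.27, 0.12 and 0.24. In footprints its order was another one, with Mars 5.34-fold above Mars2 in WT-shSCR, 8.07-fold in WT-shARF and 4.97-fold in Arf-/--shSCR cells, and the SD of the log2 ratio in WT-shARF cells was 0.70.

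**Figure D1:**
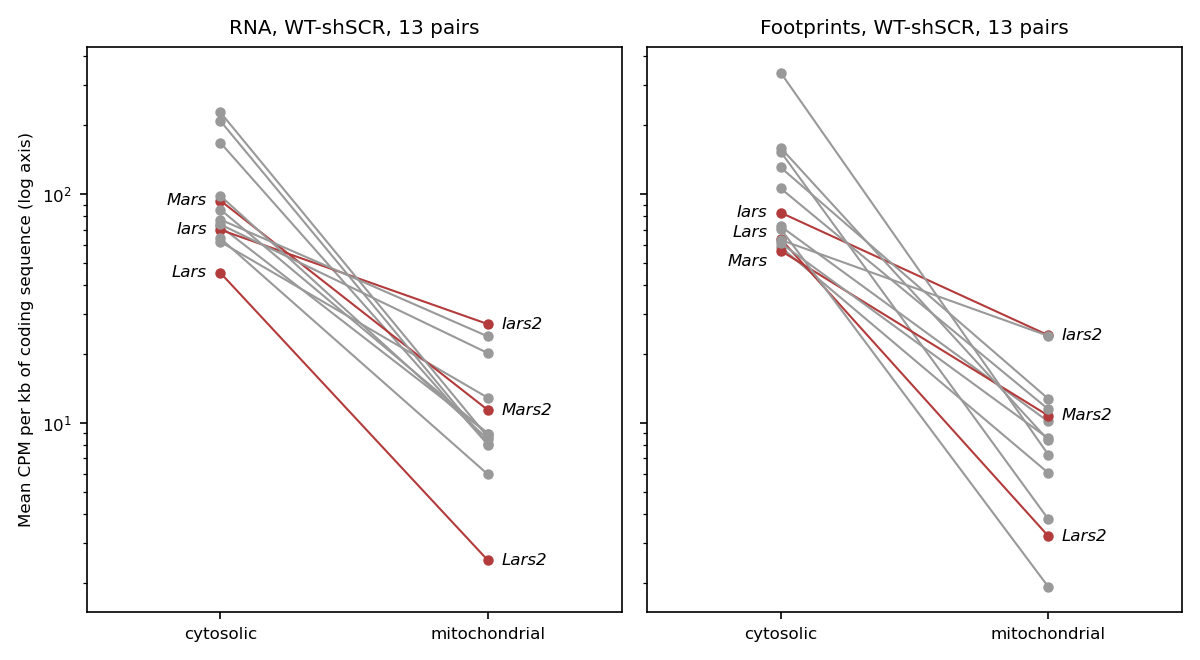
Mean CPM per kb of coding sequence (log axis) of the 13 cytosolic synthetase genes and their mitochondrial partners in WT-shSCR RNA (left) and footprints (right), each point the mean of 2 libraries and each line a pair. Every line falls from left to right; the isoleucine, leucine and methionine pairs are named.

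The translation efficiency (TE) of a gene was taken as the log2 of footprint CPM over RNA CPM, so that 0 means equal shares of both. Relative to 8223 genes with at least 10 counts in all 12 libraries, the cytosolic synthetases were spread from the 10.4th to the 89.4th percentile in WT-shSCR cells and their median log2 TE was -0.10 against 0.01 for all those genes, and 7 of 20 were above the median of all genes. The highest members were the scaffold gene Aimp1 (log2 TE 1.07 ± 0.15), Dars (0.99 ± 0.33) and Nars (0.70 ± 0.07; SD, n = 2 libraries per assay). These same genes stayed in the highest 20% in every condition: in Arf-/--shSCR cells Aimp1 was at the 85.7th, Dars at the 84th and Nars at the 85.4th percentile. Rars, the arginine enzyme, was beside them, at percentile 77.6 in WT-shSCR and 86.2 in Arf-/--shSCR cells. Kars, the lysine enzyme, had the lowest TE among cytosolic genes in WT-shSCR cells, at -0.998 ± 0.15, and it was at -0.66 ± 0.14 in WT-shARF and -0.69 ± 0.03 in Arf-/--shSCR cells.

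Mitochondrial synthetases made up most of the low end. In WT-shSCR cells 6 of the 14 mitochondrial members with at least 10 counts in all libraries (all but Lars2 and Pars2) were in the lowest 20% of genes by TE, against 3 of 20 cytosolic members; the numbers were 3 and 1 in WT-shARF and 6 and 1 in Arf-/--shSCR cells. The 3 lowest in WT-shSCR cells were Vars2 for valine (log2 TE -2.04 ± 0.48, the 1.9th percentile), Fars2 for phenylalanine (-1.30 ± 0.28) and Tars2 for threonine (-1.13 ± 0.80). Others were high, such as Rars2 at 0.52 ± 0.47 and Wars2 at 0.56 ± 0.96, and the large SDs go with counts as low as 5 in RNA and 6 in footprints (Pars2, the proline enzyme). The median of the cytosolic minus that of the mitochondrial members was 0.07 on the log2 scale in WT-shSCR (SD between replicates 0.32), 0.14 in WT-shARF (SD 0.16) and 0.33 in Arf-/--shSCR cells (SD 0.22). The difference was below this SD in the first 2 conditions and above it in Arf-/--shSCR cells. The SD matches footprint and RNA libraries by replicate number, a pairing that was not shown, so it cannot set the conditions apart. Leaving out a library turned the sign of this difference in WT-shSCR (to -0.02 without RNAseq replicate 2 and -0.03 without RiboSeq replicate 2) and in WT-shARF cells (to -0.04 without RiboSeq replicate 2). Within the 13 pairs the cytosolic gene had the higher TE in 8, 7 and 8 pairs of the 3 conditions.

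**Figure D2:**
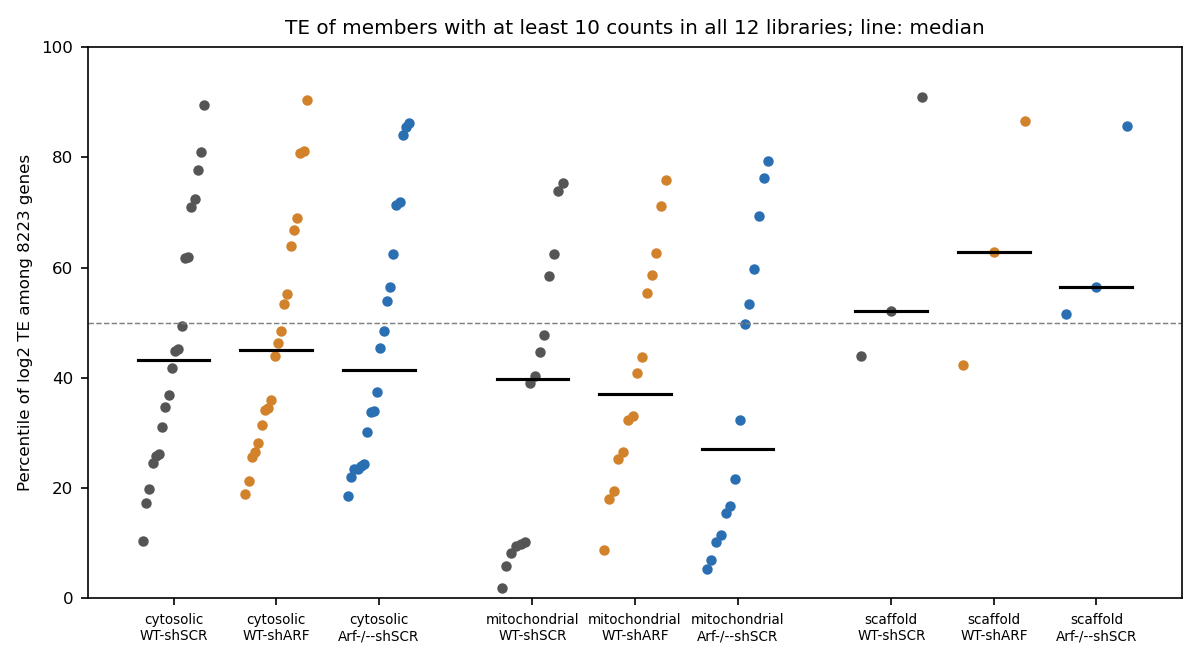
Percentile of log2 TE among 8223 genes for each member with at least 10 counts in all 12 libraries, by member group and condition; each point is a gene and black lines are medians. Cytosolic members span from the 10.4th to the 89.4th percentile in WT-shSCR cells, and 6 of 14 mitochondrial members lie in the lowest 20%.

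In RNA, Vars was the only member called in the 3 comparisons. In Arf-/--shSCR against WT-shSCR cells a single member passed an adjusted p of 0.05 in edgeR's quasi-likelihood test, whereas 3.94% of 10659 genes were called higher and 3.99% lower. That gene was Vars, the valine enzyme, with 381.9 and 390.1 CPM in WT-shSCR and 514.4 and 634.9 CPM in Arf-/--shSCR libraries. The groups did not overlap. Of genes with at least 10 counts in all 12 libraries, 26.3% likewise stood above WT-shSCR without overlap. Vars RNA rose by a log2 of 0.57 ± 0.15 (SE, edgeR adjusted p = 0.0247). The call was lost without either WT-shSCR replicate or without Arf-/--shSCR replicate 2 (adjusted p = 0.20 to 0.23). The median log2 fold change was 0.05 over cytosolic and 0.08 over mitochondrial members, beside 0.00 over all genes. The other extremes were mostly scarce mitochondrial RNAs with large errors, none past the test: Pars2 at 1.04 ± 0.55, Sars2 at 0.63 ± 0.35, Fars2 at -0.45 ± 0.33 and Mars2 at -0.35 ± 0.36. Gars, first in RNA level per kb, had 657.2 and 651.9 CPM in WT-shSCR and 549.4 and 515.1 CPM in Arf-/--shSCR RNA, a log2 difference of -0.30 ± 0.14 (edgeR adjusted p = 0.212).

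In WT-shARF against WT-shSCR RNA edgeR called 0 members, while 3.11% of all genes were called higher and 4.17% lower. DESeq2 also called 0. At an unadjusted p under 0.05 there were 7 cytosolic members higher and 1 mitochondrial member lower, a share of the 39 near the 21.1% of all genes under that p. The largest differences above 0 were 0.73 ± 0.58 for Pars2, 0.48 ± 0.19 for Dars and 0.46 ± 0.16 for Farsb, the beta subunit of the phenylalanine enzyme, and the lowest were -0.68 ± 0.33 for Fars2, -0.57 ± 0.45 for Nars2 and -0.47 ± 0.40 for Rars2. Without WT-shSCR RNAseq replicate 2, 3 members were called higher, Dars and Farsb among them. The median was 0.16 over cytosolic and 0.01 over mitochondrial members. In the direct comparison of Arf-/--shSCR with WT-shARF RNA, 1.38% of genes were called higher and 1.19% lower, and again 0 members by edgeR (1 cytosolic and 1 mitochondrial member higher and 4 cytosolic members lower at an unadjusted p under 0.05, which 16.4% of all genes passed). DESeq2 called 0 here too.

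Ribosome footprints of the cytosolic enzymes for lysine and valine rose in both WT-shARF and Arf-/--shSCR cells. In GENCODE M21 on GRCm38, Kars lies at chr8:111993443-112011323 on the - strand and has 1 named pseudogene, and Vars lies at chr17:35000987-35016322 on the + strand. Kars footprints were 138.7 and 149.8 CPM in WT-shSCR, 206.8 and 214.5 CPM in WT-shARF and 219.1 and 213.9 CPM in Arf-/--shSCR libraries. Vars footprints were 298.8 and 254.5, 411.3 and 386.7, and 379.9 and 417.4 CPM in the same order. For both genes every WT-shARF and Arf-/--shSCR library was above both WT-shSCR libraries, and the WT-shARF values overlapped the Arf-/--shSCR values. Of genes with at least 10 counts in all 12 libraries, 27.4% stood above WT-shSCR without overlap in WT-shARF and 30.9% in Arf-/--shSCR footprints. Against WT-shSCR, Kars rose by a log2 of 0.55 ± 0.12 in WT-shARF (SE, edgeR adjusted p = 0.00162) and 0.58 ± 0.12 in Arf-/--shSCR cells (edgeR adjusted p = 0.000611). Vars rose by 0.52 ± 0.10 in WT-shARF (edgeR adjusted p = 0.000315) and by 0.52 ± 0.10 in Arf-/--shSCR cells (edgeR adjusted p = 0.000374). The comparisons share the WT-shSCR libraries. These 4 calls were kept under all 11 alternatives tried for each, the removal of any library included. The RNA of Kars was 307.3 and 270.7, 357.7 and 312.1, and 352.1 and 345.4 CPM. Its log2 differences from WT-shSCR, 0.20 ± 0.14 and 0.26 ± 0.15, did not pass the test. Vars RNA was 381.9 and 390.1, 491.3 and 474.3, and 514.4 and 634.9 CPM. Its log2 difference was 0.32 ± 0.13 in WT-shARF cells, not past the test, and 0.57 ± 0.15 in Arf-/--shSCR cells, the RNA call given above.

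**Figure D3:**
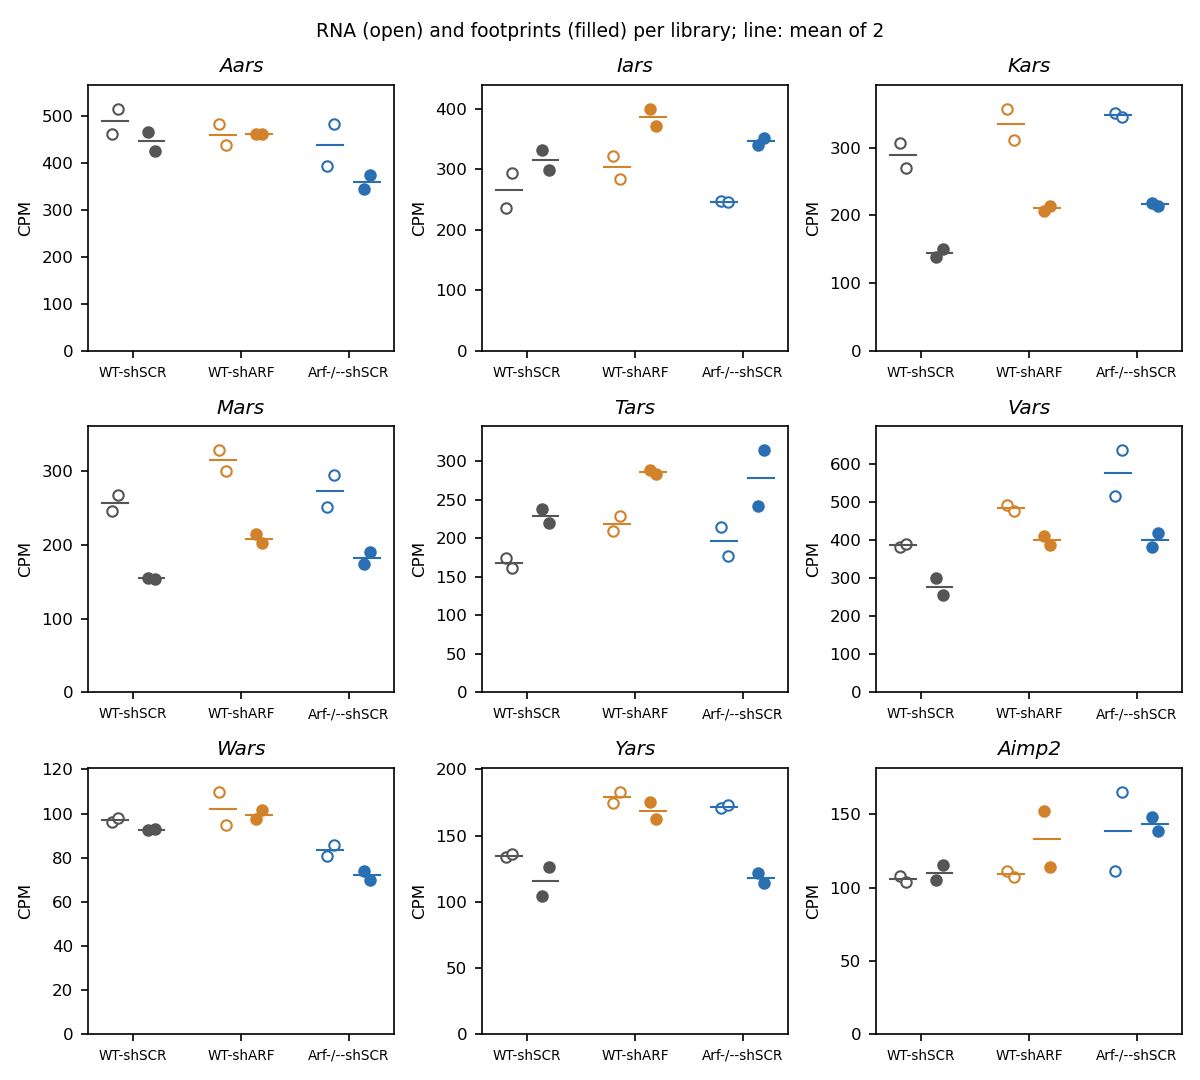
CPM per library of the 9 members called in at least 1 comparison, RNA as open and footprints as filled points, by condition (WT-shSCR, then WT-shARF, then Arf-/--shSCR); lines are means of 2 libraries. Kars and Vars footprints are higher in both conditions than in WT-shSCR, while Yars footprints are high in the WT-shARF libraries (162.2 and 175.4 CPM) and Aars and Wars footprints are lowest in Arf-/--shSCR libraries.

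In WT-shARF against WT-shSCR cells 6 of 20 cytosolic synthetases rose in footprints and none fell, beside 5.63% of all genes called higher and 5.5% lower. Besides Kars and Vars these were the enzymes for tyrosine, methionine, threonine and isoleucine. Yars footprints were 104.4 and 126.3 CPM in WT-shSCR and 175.4 and 162.2 CPM in WT-shARF libraries, a rise of 0.55 ± 0.13 (log2 and SE, edgeR adjusted p = 0.00512). Mars had 155.1 and 154.1 against 214.4 and 201.8 CPM (0.42 ± 0.12, edgeR adjusted p = 0.0137). Neither gene's groups overlapped, and 27.4% of genes with at least 10 counts in all 12 libraries also stood above WT-shSCR without overlap. Tars had 238.8 and 220.3 against 289.5 and 284.2 CPM (0.32 ± 0.10, edgeR adjusted p = 0.0379). Iars had 331.1 and 297.9 against 399.7 and 371.4 CPM (0.29 ± 0.10, edgeR adjusted p = 0.0443). Both were close to the threshold, and DESeq2 did not call them. RNA of these genes was also above 0, by 0.41 ± 0.15 for Yars, 0.29 ± 0.13 for Mars, 0.38 ± 0.14 for Tars and 0.20 ± 0.14 for Iars. None of these RNA values passed the test. Their TE changes were 0.15 ± 0.20, 0.14 ± 0.18, -0.05 ± 0.18 and 0.105 ± 0.18 in the same order, with none called. In footprints 17 of all 20 cytosolic synthetases were above 0, with a median of 0.19 beside 0.00 over all genes. The summed footprint level of the 20 was 4705 and 4576 CPM in WT-shSCR and 5330 and 5270 CPM in WT-shARF libraries. Without WT-shARF RiboSeq replicate 1 the called members were 2, and without replicate 2 they were 3. Yars lost its call without replicate 1 of WT-shSCR or WT-shARF (edgeR adjusted p up to 0.0763), Mars without either WT-shARF replicate (up to 0.164), and Tars and Iars without WT-shSCR replicate 2 or either WT-shARF replicate (up to 0.232 and 0.367).

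For Arf-/--shSCR against WT-shSCR footprints, where 9.57% of all genes were called higher and 8.95% lower, 2 cytosolic synthetases and 1 scaffold gene rose and 1 cytosolic synthetase fell. Besides Kars and Vars the gene that rose was Aimp2, which links the complex together: its footprints were 105.4 and 115.1 CPM in WT-shSCR and 148.2 and 138.7 CPM in Arf-/--shSCR libraries (0.38 ± 0.14, edgeR adjusted p = 0.0498). The WT-shARF libraries had 152.4 and 113.9 CPM, and overlapped both. The call was at the threshold, held in 5 of 11 alternatives and was lost without any of the 4 libraries (edgeR adjusted p up to 0.299). Aars, the alanine enzyme, fell from 465.8 and 424.6 CPM to 344.5 and 373.8 CPM (log2 -0.32 ± 0.10, edgeR adjusted p = 0.0182), and its call was lost without WT-shSCR or Arf-/--shSCR RiboSeq replicate 1 (edgeR adjusted p up to 0.206). The lowest cytosolic value was that of Wars, the tryptophan enzyme, which is also interferon-inducible, and it did not pass the test at -0.37 ± 0.15 (edgeR adjusted p = 0.0900). The 4 called of 39 members are a smaller share than that of all genes called in either direction. The summed cytosolic footprint level was 4848 and 5045 CPM, above both WT-shSCR libraries and below both WT-shARF libraries.

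No mitochondrial synthetase was called in any of the 9 comparisons. In footprints their median log2 fold change was 0.26 in Arf-/--shSCR and 0.23 in WT-shARF against WT-shSCR cells, with 12 and 9 of 16 above 0, and the summed level of the 16 was 299.8 and 268.1 CPM in WT-shSCR, 315.8 and 318.3 CPM in WT-shARF and 332.2 and 315.8 CPM in Arf-/--shSCR libraries. The largest difference was that of Vars2, with footprints of 5.67 and 7.17 CPM in WT-shSCR, 12.03 and 13.98 CPM in WT-shARF and 9.89 and 9.90 CPM in Arf-/--shSCR libraries. These groups did not overlap, but the lowest count was 17, and the log2 changes of 1.03 ± 0.47 and 0.62 ± 0.47 did not pass the test (edgeR adjusted p = 0.170 and 0.400). Of genes with at least 10 counts in all 12 libraries, 27.4% and 30.9% stood above WT-shSCR without overlap in the same order. Pars2 was at 0.81 ± 0.68 and Tars2 at 0.67 ± 0.27 in WT-shARF cells. The value of Tars2 depended on WT-shSCR RiboSeq replicate 1, which had 34.4 CPM where replicate 2 had 15.9 CPM: without replicate 1 the difference was 1.34 (edgeR adjusted p = 0.00229). The lowest differences were those of Rars2 (-0.42 ± 0.33), Wars2 (-0.30 ± 0.49) and Fars2 (-0.25 ± 0.48) in WT-shARF cells, and Fars2 (-0.58 ± 0.49) and Nars2 (-0.35 ± 0.44) in Arf-/--shSCR cells.

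**Figure D4:**
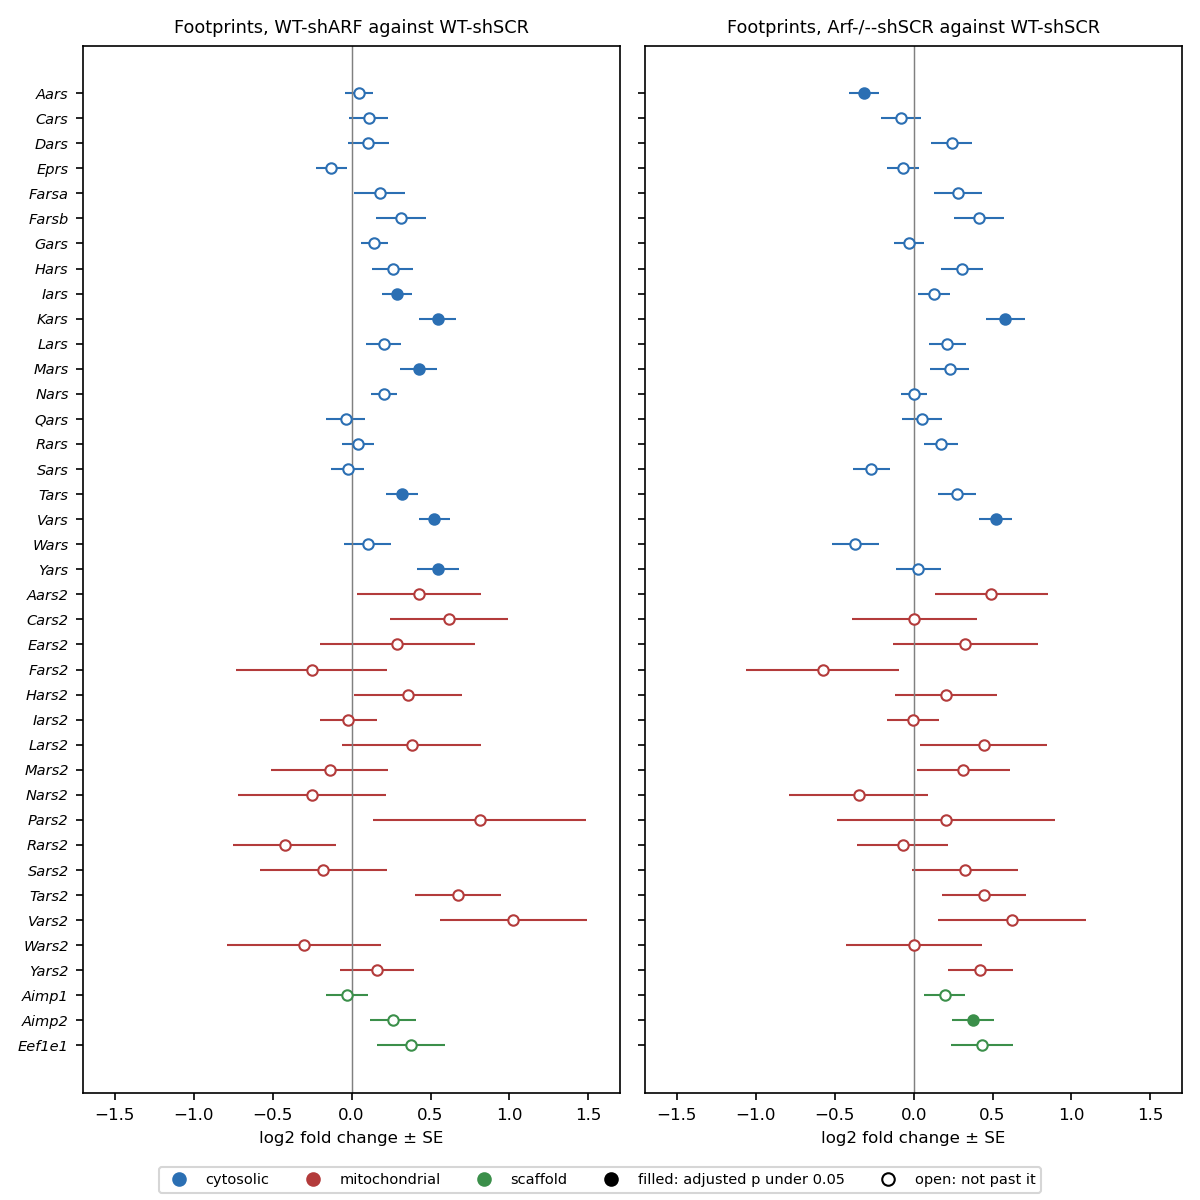
Footprint log2 fold change ± SE of all 39 members in WT-shARF (left) and Arf-/--shSCR (right) against WT-shSCR libraries, blue for cytosolic, red for mitochondrial and green for scaffold genes; filled points have an adjusted p under 0.05. Kars and Vars are filled on both sides, 17 of 20 cytosolic genes are above 0 on the left, and no mitochondrial gene is filled.

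Members of the multisynthetase complex (8 cytosolic synthetases with the 3 scaffold proteins) had footprints above WT-shSCR in 10 of 11 genes in Arf-/--shSCR and 8 of 11 in WT-shARF cells, with medians of 0.21 and 0.20 and with 2 (Kars and Aimp2) and 3 (Iars, Kars and Mars) called higher. Of all genes 49.9% and 49.7% were above 0, and 9.57% and 5.63% were called higher. Without any of the 4 libraries the 2 calls in Arf-/--shSCR cells became 1, and without either WT-shARF replicate the 3 calls became 1. Their summed footprints were 2082 and 2074 CPM in WT-shSCR, 2352 and 2282 CPM in WT-shARF and 2327 and 2397 CPM in Arf-/--shSCR libraries, so that the 4 latter libraries were all above the former. Eef1e1, the smallest scaffold protein, had 36.7 and 37.4, 49.2 and 47.2, and 52.2 and 48.1 CPM. Both WT-shSCR libraries were below the 4 others, and the changes from WT-shSCR of 0.38 ± 0.21 and 0.43 ± 0.19 did not pass the test (edgeR adjusted p = 0.301 and 0.127). Of genes with at least 10 counts in all 12 libraries, 27.4% stood above WT-shSCR without overlap in WT-shARF and 30.9% in Arf-/--shSCR cells. Aimp1 had 135.1 and 133.4, 131.6 and 131.9, and 146.2 and 162.6 CPM, and its changes of -0.03 ± 0.13 and 0.20 ± 0.13 did not pass either. In RNA 3 of 3 scaffold genes were above 0 in both comparisons, with no call.

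WT-shARF and Arf-/--shSCR cells also differed from each other. Set against WT-shARF, Arf-/--shSCR cells had footprints in which 3 cytosolic synthetases fell and none rose, beside 4.3% of all genes called lower and 3.93% higher. Counted in both directions, 3 of 39 is near the share of all genes. Yars had 175.4 and 162.2 CPM in WT-shARF and 121.5 and 114.3 CPM in Arf-/--shSCR libraries (log2 -0.53 ± 0.11, edgeR adjusted p = 0.00708). Aars had 460.9 and 460.6 against 344.5 and 373.8 CPM (-0.37 ± 0.08, edgeR adjusted p = 0.00643), and Wars had 97.4 and 101.4 against 74.0 and 69.9 CPM (-0.48 ± 0.14, edgeR adjusted p = 0.0363). In none of these genes did the groups overlap, and 23.9% of genes with at least 10 counts in all 12 libraries were likewise lower without overlap. The RNA of Yars was 174.6 and 183.1 CPM in WT-shARF and 170.5 and 173.1 CPM in Arf-/--shSCR libraries, a log2 difference of -0.07 ± 0.13. For Aars and Wars the RNA differences were -0.08 ± 0.14 and -0.30 ± 0.16, and none of these RNA values passed the test. Without either WT-shARF RiboSeq replicate 0 members were called, so that each of the 3 calls rests on both of these libraries, with adjusted p-values of edgeR's test up to 0.138 for Yars, 0.172 for Aars and 0.225 for Wars. Wars was also not called by DESeq2 or without either Arf-/--shSCR replicate. The macrophage markers, lower in Arf-/--shSCR than in WT-shARF libraries, and the strain move with this comparison; the part of the former in it was not tested.

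Yars, Aars and Wars all belong to the 13 cytosolic synthetases known as ATF4-induced. Footprints of 11 of these 13 genes were lower in Arf-/--shSCR than in WT-shARF cells, with a median log2 fold change of -0.20, while 7 of 7 other cytosolic synthetases were higher, with a median of 0.09. The 7, none of them called, were Dars, Farsa, Farsb, Hars, Kars, Qars and Rars. Their values lay between 0.03 and 0.13, with SEs of 0.09 to 0.15. Of all genes tested, 50.3% were above 0 and the median of all genes was 0.00. Over the 11 alternatives 9 to 12 of the 13 genes were below 0 and 5 to 7 of the 7 were above 0. These comparisons share libraries. Against WT-shSCR the 13 genes had a median of 0.20 in WT-shARF (11 of 13 above 0, 5 called higher) and 0.00 in Arf-/--shSCR cells (7 of 13 above 0, 1 called higher and 1 lower). The 7 others had medians of 0.18 and 0.28 there, with 6 and 7 of 7 above 0 and Kars as the one called. In RNA of Arf-/--shSCR against WT-shARF cells, 11 of the 13 and 4 of the 7 were below 0. Their RNA medians were close, at -0.09 and -0.06, and 0 were called. A part of ATF4 in these differences was not tested.

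**Figure D5:**
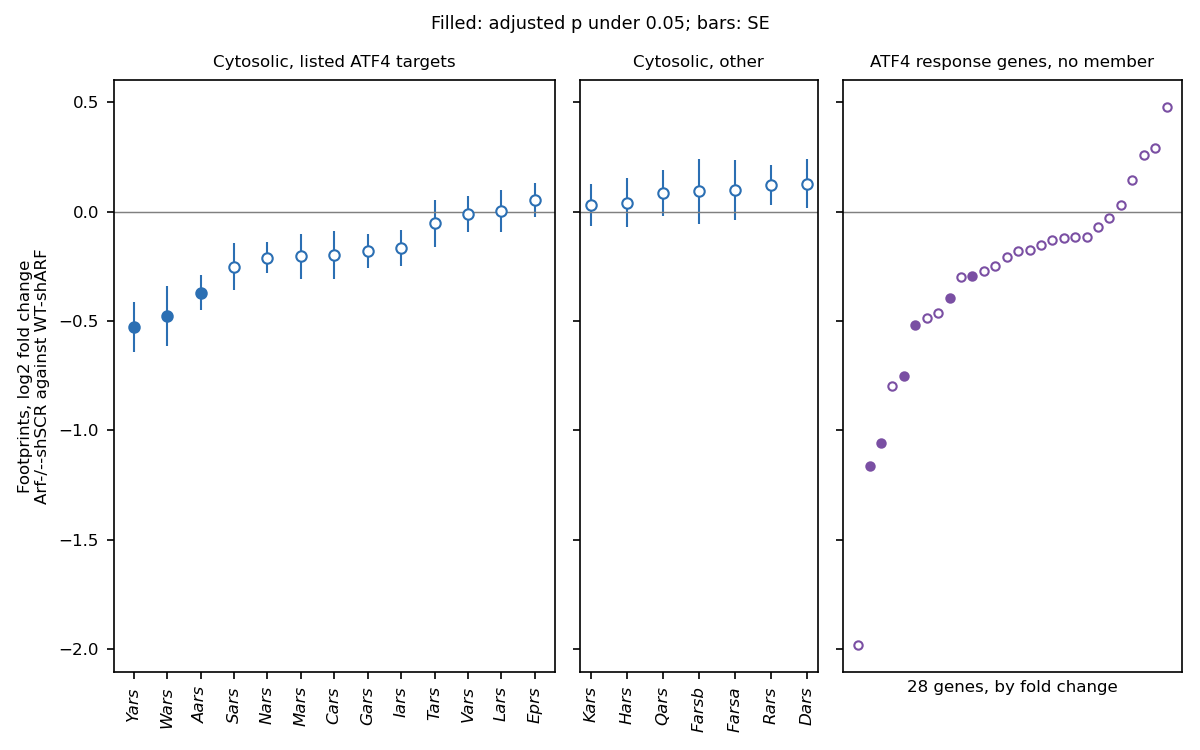
Footprint log2 fold change of Arf-/--shSCR against WT-shARF libraries for 13 cytosolic synthetases known as ATF4-induced (left), the 7 other cytosolic synthetases (middle; bars are SE) and 28 further ATF4 response genes (right); filled points have an adjusted p under 0.05. On the left 11 of 13 points are below 0, in the middle all 7 are above 0, and on the right 23 of 28 are below 0.

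Further genes of the ATF4 amino acid response, 29 on a list without synthetases, were set beside these values. In WT-shARF against WT-shSCR footprints 9 of 29 were called higher and 0 lower, beside 5.63% and 5.5% of all genes, and without WT-shARF RiboSeq replicate 2 there were 5 higher. These included Psat1 (0.73 ± 0.09) and Shmt2 (0.72 ± 0.10), enzymes of serine and glycine synthesis, Mthfd2 of mitochondrial folate metabolism (0.81 ± 0.16) and the amino acid transporter gene Slc7a5 (0.66 ± 0.13). Of the same 29 genes, 5 were called higher and 3 lower in Arf-/--shSCR against WT-shSCR cells, beside 9.57% and 8.95% of all genes, with Psat1 at 0.60 ± 0.10 and Slc7a5 at 0.81 ± 0.13 but the stress gene Nupr1 at -1.599 ± 0.21. The 5 became 3 without WT-shSCR RiboSeq replicate 2 and 2 without Arf-/--shSCR replicate 2, and the 3 became 1 without replicate 1 of either condition and 2 without replicate 2 of either. In Arf-/--shSCR against WT-shARF footprints 6 of 28 were called lower and 0 higher, beside 4.3% and 3.93% of all genes, among them Psph, the last enzyme of serine synthesis (-1.06 ± 0.18), Nupr1 (-1.16 ± 0.21), the arginine transporter gene Slc7a1 (-0.52 ± 0.12) and Asns, asparagine synthetase (-0.39 ± 0.11). Without WT-shARF RiboSeq replicate 2 this number was 0, and it ranged up to 8 over the alternatives. In RNA the numbers called were 4 higher and 0 lower of 27 for WT-shARF against WT-shSCR, 2 higher and 1 lower of 28 for Arf-/--shSCR against WT-shSCR, and 1 higher and 2 lower of 28 for Arf-/--shSCR against WT-shARF. The shares of all genes called in RNA were 3.11% higher with 4.17% lower, 3.94% with 3.99%, and 1.38% with 1.19% for these comparisons. Atf4 itself had RNA of 161.0 and 122.0 CPM in WT-shSCR, 169.4 and 179.9 CPM in WT-shARF and 226.3 and 202.3 CPM in Arf-/--shSCR libraries, and its RNA rose in Arf-/--shSCR cells (0.58 ± 0.17, edgeR adjusted p = 0.0396). Atf4 footprints were 56.35 and 68.51, 63.82 and 71.79, and 75.79 and 91.92 CPM in the same order, highest in the Arf-/--shSCR libraries. The letters TGATGNAA were in 9 of 26 windows of this list.

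Of 14 other genes of tRNA charging and delivery, 5 rose in footprints in Arf-/--shSCR and 4 in WT-shARF cells against WT-shSCR, and none fell. Of all genes 9.57% and 5.63% were called higher there and 8.95% and 5.5% lower. Without WT-shSCR RiboSeq replicate 2 the numbers that rose were 3 and 2, and without WT-shARF RiboSeq replicate 1 the 4 became 2. They were mainly subunits of elongation factor eEF1, which carries charged tRNAs to the ribosome. Eef1b2, an exchange factor subunit, had 625.2 and 573.2 CPM in WT-shSCR, 800.5 and 856.0 CPM in WT-shARF and 979.5 and 907.7 CPM in Arf-/--shSCR libraries. Its footprints rose by 0.47 ± 0.08 and 0.65 ± 0.08, those of Eef1g by 0.32 ± 0.07 and 0.46 ± 0.07, those of Eef1d by 0.38 ± 0.10 and 0.46 ± 0.10 and those of Eef1a1 by 0.16 ± 0.05 and 0.35 ± 0.05. In Arf-/--shSCR cells Tufm, the mitochondrial elongation factor, rose as well (0.39 ± 0.14), and in WT-shARF cells it had the same value of 0.39 ± 0.14 without passing the test. Compared with WT-shARF, Arf-/--shSCR cells had 1 of 14 called higher, Eef1a1 at 0.18 ± 0.04. No gene of this list was called in RNA.

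Whether the ribosome load of a synthetase mRNA changed relative to its RNA was tested as the interaction of assay and condition. TE calls were rare in all genes: 0.0884% were called higher and 0.106% lower in Arf-/--shSCR against WT-shSCR cells, 0.0354% and 0% in WT-shARF against WT-shSCR cells, and 0.0172% and 0.0258% in Arf-/--shSCR against WT-shARF cells. By edgeR 0 of 39 members were called in each, and DESeq2 called 0 as well. At an unadjusted p under 0.05 there were 0 in both comparisons with WT-shSCR and 2 lower in Arf-/--shSCR than in WT-shARF cells, Yars at -0.46 ± 0.18 and Tars2 at -0.57 ± 0.27 (edgeR adjusted p = 0.546 and 0.641). The shares of all genes under that p were 6.83% for Arf-/--shSCR and 6.65% for WT-shARF against WT-shSCR, and 7.57% for Arf-/--shSCR against WT-shARF. The medians over cytosolic and mitochondrial members were 0.01 and 0.02 in Arf-/--shSCR and 0.10 and 0.18 in WT-shARF against WT-shSCR cells, beside -0.04 and 0.01 over all genes. Kars had TE changes of 0.29 ± 0.18 and 0.36 ± 0.18, and Vars of -0.08 ± 0.18 and 0.22 ± 0.16, for Arf-/--shSCR and WT-shARF cells. None of these 4 values could be told from 0 at this depth. In counts simulated for Arf-/--shSCR against WT-shSCR, with changed genes drawn at all depths, the TE test called 0% of those changed by a log2 of 0.5. It called 20% of those changed by a log2 of 1, so the absence of calls does not show an absence of change. Of the list of tRNA charging and delivery, Eef1b2 was called in Arf-/--shSCR against WT-shSCR cells (0.75 ± 0.15, edgeR adjusted p = 0.0393). Eef1b2 and Eef1a1 are on the study's list of known terminal oligopyrimidine genes, whose mRNAs begin with a run of pyrimidines. With DESeq2 the study reported generally higher TE of such mRNAs after knockout of Arf.

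The extremes of TE change among members were again mostly scarce mRNAs. For Arf-/--shSCR cells set against WT-shSCR they were Vars2 (0.75 ± 0.49), Mars2 (0.63 ± 0.46) and Lars2 (0.41 ± 0.62) at the top and Pars2 (-0.88 ± 0.91), Nars2 (-0.53 ± 0.57) and Yars (-0.35 ± 0.21) at the bottom. In WT-shARF against WT-shSCR cells they were Vars2 (1.02 ± 0.51), Cars2 (0.78 ± 0.45) and Ears2 (0.62 ± 0.59), and Wars2 (-0.41 ± 0.75), Dars (-0.37 ± 0.24) and Aimp1 (-0.25 ± 0.23). Adjusted p-values of these 12 changes were 0.755 or more in edgeR's test. The best covered of the lowest 3 in Arf-/--shSCR cells was Yars, with counts of at least 214 in RNA and 313 in footprints.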

How the data were processed

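The authors clipped adapters, split libraries by barcode, removed UMIs with UMI-tools and barcodes with cutadapt, and removed reads of rRNA and noncoding RNA with Bowtie2. TopHat then placed reads on mm10, and HTSeq counted those over coding sequence. The files deposited by the authors hold these raw counts, for 20661 genes and 5 rows that name no gene and were left out. Alignments that were not unique, 79.22% to 81.38% of the RNAseq and 46.34% to 52.92% of the RiboSeq total, did not enter the counts, which lowers the depth behind each value. Replicates differed by more than sampling noise in every group.

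From the counts, edgeR 4.0.16 (R 4.3.3) fitted each pair of conditions over all genes with TMM factors, filterByExpr and the quasi-likelihood F test, and TE as the interaction over 8 libraries; a gene was called where the p-value, adjusted after Benjamini and Hochberg, was under 0.05. SEs are the log2 fold change over the root of F. CPM used TMM over 12 libraries, TE levels a pseudocount of 0.5 CPM, and coding lengths GENCODE M21. Alternatives were DESeq2 1.42.0, RLE factors, TMM without 84 ribosomal protein genes, 2 other filters, all 3 conditions in one fit, a replicate block and leaving out each library; crossed replicate numbers and counts of list genes above 0 were added after seeing the data. The tests were tried on counts simulated for Arf-/--shSCR against WT-shSCR, with 200 genes changed. At a log2 change of 0.5 they called 0% of these in RNA, 4.5% in footprints and 0% in TE. At a log2 change of 1 the shares were 42.5%, 54% and 20%. The changed genes were drawn from all genes tested, so these shares do not give the power for the better covered cytosolic members. In RNA and footprints more genes were called in the data than were changed in the simulation, which also makes the setting differ. Members and lists were chosen with earlier results of these data known. Named are each member called, the 3 highest and 3 lowest changes against WT-shSCR and TE levels, the scaffold genes and 3 partner pairs; other genes were chosen after their values were seen.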

Additional observations from a re-analysis of the deposited data

Results flagged for a closer look

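Footprints of 3 members differed between Arf-/--shSCR and WT-shARF cells in the direct comparison by edgeR's quasi-likelihood test, beside 4.3% of all genes called lower and 3.93% higher, a share of genes near that of the members: Aars (log2 -0.37, adjusted p = 0.00643), Wars (-0.48, adjusted p = 0.0363) and Yars (-0.53, adjusted p = 0.00708). In these libraries Yars footprints were high in WT-shARF cells, whereas Aars and Wars footprints were low in Arf-/--shSCR cells. Macrophage markers were lower and epithelial and mesothelial markers higher in the Arf-/--shSCR libraries, Cdkn2a counts went against the WT-shARF label, and strain differs with the knockout; their part in these differences was not tested.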

How the results depend on the processing

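Among the values of named members under the alternatives, 506 kept direction and side of the threshold, 33 lost a call and 4 gained one. A further 19, with an adjusted p that DESeq2 gave as NA, kept their direction. In 4 a value that was not called changed sign: Nars2 footprints in Arf-/--shSCR and Wars2 footprints in WT-shARF against WT-shSCR, and Wars2 TE in the latter under 2 settings. No called value changed sign. The footprint calls of Kars and Vars held in all 11 alternatives, and TE gave 0 called members in every alternative. Leaving out a library moved the number of called members from 1 to between 0 and 2 (RNA, Arf-/--shSCR against WT-shSCR), from 0 to between 0 and 3 (RNA, WT-shARF against WT-shSCR), from 0 to between 0 and 1 (RNA, Arf-/--shSCR against WT-shARF), from 6 to between 2 and 6 (footprints, WT-shARF against WT-shSCR) and from 3 to between 0 and 3 (footprints, Arf-/--shSCR against WT-shARF). These fits have fewer samples, and a lone library is assumed to vary like the other group.

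Medians under the same removals ranged from -0.0074 to 0.16 for cytosolic and -0.051 to 0.21 for mitochondrial members in RNA of Arf-/--shSCR against WT-shSCR, and from -0.18 to 0.13 for mitochondrial members in RNA of WT-shARF against WT-shSCR. In footprints they ranged from 0.12 to 0.27 for mitochondrial members in Arf-/--shSCR against WT-shSCR, and, against WT-shARF, from -0.14 to -0.034 for cytosolic and -0.11 to 0.064 for mitochondrial members. For TE of mitochondrial members they ranged from -0.077 to 0.23 (Arf-/--shSCR against WT-shSCR), 0.16 to 0.37 (WT-shARF against WT-shSCR) and -0.26 to -0.10 (Arf-/--shSCR against WT-shARF). The TE level of cytosolic minus mitochondrial members in WT-shARF cells ranged from -0.038 to 0.17. The cause was not tested.

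Equal replicate numbers were not shown to pair samples (correlations of deviations -0.022 to 0.068 over 11603 genes). With the replicate block 1 member was called in RNA of WT-shARF against WT-shSCR where 0 were called without it, and Tars2 footprints rose in that comparison (0.76, edgeR adjusted p = 0.0362). Among 5507 genes with at least 30 counts, RNA deviations of Arf-/--shSCR correlated at -0.139 with WT-shSCR and -0.12 with WT-shARF; with crossed numbers, a replicate block chosen after seeing the data, 3 and 1 members were called. Depth limits the mitochondrial members most, whose counts had a median of 44 in RNA and 47.5 in footprints against 567 and 765 for cytosolic members.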

Other observations

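The synthetases fall into structural classes I and II, which have unrelated folds of the active site. By subunit 18 and 17 genes were listed, with the beta subunit gene Farsb in class II and Eprs in neither list. In WT-shARF against WT-shSCR footprints 13 of 18 class I and 13 of 17 class II subunits were above 0, with medians of 0.18 and 0.21, and 4 and 2 were called higher, beside 5.63% of all genes. In Arf-/--shSCR against WT-shSCR footprints 14 of 18 and 12 of 17 were above 0, with medians of 0.15 and 0.24; 1 of each class was called higher and 1 of class II lower, beside 9.57% and 8.95% of all genes. In RNA of the same comparison the medians were -0.07 (8 of 18 above 0) and 0.22 (12 of 17), with 1 class I subunit called, beside 3.94% of all genes. The TE medians for Arf-/--shSCR were 0.13 and -0.06 against WT-shSCR, and 0.07 (10 of 18 above 0) and -0.19 (4 of 17) against WT-shARF, with no member called. The difference between the classes was not tested.

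Hars and Hars2 on chromosome 18, which charge histidine tRNAs in the cytosol and in mitochondria, lie on opposite strands. Their annotated starts are 197 bases apart, and the annotated genes overlap over that stretch. Their RNA differed in level (72.4 against 8.99 CPM per kb in WT-shSCR cells), and neither was called in any comparison: the footprint changes in Arf-/--shSCR against WT-shSCR cells were 0.31 ± 0.13 for Hars and 0.21 ± 0.32 for Hars2 (edgeR adjusted p = 0.106 and 0.725).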
